A study of Mus musculus with 9 samples.

Results

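Transcripts of 10 genes of the Hippo pathway were followed in the right ventricular myocardium of mice labelled as wild-type C57BL/6 and as postnatal day 7. The 10 genes were chosen by name, though with earlier results of these data known. They were the co-activators Yap1 and Wwtr1, the DNA-binding partners Tead1 and Tead4, the kinases Lats1 and Lats2, and the targets Ctgf, Cyr61, Ankrd1 and Amotl2. All 10 were found among the 54532 genes of the deposited table, and all 10 passed the filter on low values that kept 13477 genes for testing. RNA sequencing was done on 9 libraries in 3 groups of 3. The CsA group had a fistula operation and an injection of cyclosporin A, an inhibitor of the phosphatase calcineurin. The VO group had the fistula operation alone, a shunt that raises the volume of blood the heart must pump, and the Sham group had a sham operation. All 3 groups were operated on, and neither the dose of cyclosporin A, nor whether the VO and Sham mice were given a vehicle, nor the age at harvest is given in the sources used here. Whether the libraries of a group came from different mice is not stated, so p-values reflect spread between samples that may be purely technical.

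The Hippo pathway is a kinase cascade that restrains organ growth. The kinases MST1 and MST2, encoded by Stk4 and Stk3, activate LATS1 and LATS2, which phosphorylate the co-activators YAP, encoded by Yap1, and TAZ, encoded by Wwtr1, and so keep them out of the nucleus. Unphosphorylated YAP and TAZ enter the nucleus, bind TEAD factors and turn on genes such as Ctgf and Cyr61. In the mouse heart this pathway is known for limiting the proliferation of cardiomyocytes around birth. Since the co-activators are controlled mainly by phosphorylation and location, transcript levels of Yap1 and Wwtr1 do not measure their activity.

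Several libraries stood apart. VO 3 had 11.01% of its fragments on mitochondrially encoded genes, against 22.18% to 26.34% in the other 8 libraries, and 17003 genes above 0, against 19619 to 20479. Atrial transcripts varied widely within CsA and within Sham. The summed level of 7 atrial cardiomyocyte markers was 34.8, 7.97 and 165.9 FPKM in CsA 1 to 3, 28.2, 17.7 and 19.2 FPKM in VO 1 to 3, and 595.9, 10.9 and 625.3 FPKM in Sham 1 to 3. FPKM counts fragments relative to the length of the gene and the size of the library. The atrial light chain Myl7 alone reached 269.7 FPKM in Sham 3. The ventricular light chain Myl2 was present throughout, at 511 to 1506 FPKM. Sham 2 was the only library with Y-linked Ddx3y above 0 (18.6 FPKM). Xist was at 0.004 FPKM there and at 10.2 to 66.3 FPKM in the other 8 libraries, so Sham 2 differed from them in sex. Libraries held 12046288 to 15986747 fragments.

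Stretches of promoter are described first because the sites that TEAD factors recognise can be read in them. The motif searched was GGAATG, whose reverse complement is CATTCC, on both strands of the 250 bases before each start site. The RefSeq promoter table for GRCm38.p6 held 7 of the 10 genes, in 9 windows, and Tead1, Tead4 and Ctgf were not matched. The motif was found in 6 of these 9 windows and in 12.6% of 32851 windows of the same length over all genes in that table. The windows of Wwtr1 overlap and hold the same site. By gene it was found in 5 of 7, and in 14.4% of 27025 genes in that table. The stretches run 5′ to 3′ along the gene's strand and end at the base before the start site. The start sites are those of RefSeq and can differ from the deposited coordinates. By the latter, the stretches of Amotl2 and Lats2 lie inside the gene, and a stretch of Wwtr1 does so in part. Where a site is printed, capitals mark GGAATG or CATTCC. For the targets held there, the stretches lie as follows, and each gene is listed below with its RefSeq symbol. Ankrd1 is at chr19:36119845-36120094 on the minus strand, Cyr61 (Ccn1 in RefSeq) at chr3:145649986-145650235 on the minus strand, and Amotl2 at chr9:102717554-102717803 on the plus strand.
Ankrd1: Ankrd1
Cyr61: Ccn1
Amotl2: Amotl2

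Ankrd1 held 2 matches, beginning 210 and 123 bases before its start, while Cyr61 held 1 at 103 bases and Amotl2 held 1 at 65 bases, both on the opposite strand. The promoters of the co-activators held the motif too. In Yap1 it read gcaGGAATGtag, at 141 bases, and in Wwtr1 it read aaaGGAATGcag, at 136 or 170 bases according to which of 2 annotated starts is used. The windows of Lats1 and Lats2 held none, which says only that these letters are not in those 250 bases. A longer form, AGGAATG with the reverse complement CATTCCT, contains the shorter one. It was found in 6 of the 9 windows, the same 6, and in 4.51% of all windows. Since it can only occur where the shorter form does, this is no separate result. Over all genes 4153 windows held the shorter form and 1481 the longer. Among other Hippo pathway genes 11 of 28 windows held GGAATG or CATTCC (39.3%), and among other YAP and TEAD targets 3 of 16 (18.8%). A match is a description of sequence, and binding was not measured.

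All 10 genes were transcribed in every library, at levels between 0.903 FPKM (Tead4 in VO 3) and 306 FPKM (Ankrd1 in VO 3). Over the 9 libraries the order of mean level was Ankrd1 (142.8 FPKM), Ctgf (45.1 FPKM), Wwtr1 (40.1 FPKM), Cyr61 (19.7 FPKM), Tead1 (17.5 FPKM), Amotl2 (15.4 FPKM), Yap1 (9.96 FPKM), Lats1 (6.98 FPKM), Lats2 (6.79 FPKM) and Tead4 (1.3 FPKM). FPKM is per length, so these levels can be set side by side as far as the deposited gene lengths fit the transcripts present. Those lengths ran from 1765 bases for Ankrd1 to 13570 bases for Tead1, and their fit was not tested. The lowest library for Wwtr1 (35.2 FPKM) lay above the highest for Cyr61 (25.5 FPKM), and the highest for Tead4 (1.93 FPKM) lay below the lowest for any of the other 9. The other neighbours in the order overlapped in their libraries. Ankrd1 stood above 98.2% of tested genes by mean level, Lats1 above 63.8%, Lats2 above 63.0% and Tead4 above 18.1%.

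The co-activators differed in level. Yap1 (ENSMUSG00000053110, chromosome 9, 7931999 to 8004596, minus strand, GRCm38) was at 9.91, 10.2 and 10.3 FPKM in CsA 1 to 3, 10.7, 8.54 and 6.82 FPKM in VO 1 to 3, and 10.9, 12.1 and 10.2 FPKM in Sham 1 to 3. The CsA libraries lay close together, while VO 2 and VO 3 were below all other libraries. Wwtr1 (ENSMUSG00000027803, chromosome 3, 57455649 to 57575910, minus strand) was at 42.8, 40.3 and 37.5 FPKM in CsA, 53.6, 36.4 and 36.3 FPKM in VO, and 37.8, 35.2 and 41.1 FPKM in Sham. VO 1 was the highest library, and the other 8 overlapped across groups. Wwtr1, which encodes TAZ, was thus the more abundant co-activator transcript per length in all 9 libraries. In fragments, Yap1 was read by 1020 to 1580 and Wwtr1 by 2245 to 4083 per library.

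Tead1 was the main TEAD transcript. TEAD factors bind DNA and carry YAP or TAZ to their targets. Tead1 (ENSMUSG00000055320, chromosome 7, 112679318 to 112906807, plus strand) was at 17.9, 18.9 and 15.6 FPKM in CsA, 21.7, 17.4 and 10.4 FPKM in VO, and 17.9, 17.5 and 20.0 FPKM in Sham. VO held both the highest and the lowest library, so VO spanned the other groups. Tead4 (ENSMUSG00000030353, chromosome 6, 128224288 to 128300823, minus strand) was at 1.14, 1.93 and 1.33 FPKM in CsA, 1.29, 1.25 and 0.903 FPKM in VO, and 1.11, 1.2 and 1.54 FPKM in Sham, with the groups overlapping. It rested on 49 to 86 fragments per library, so its values are less precise than those of the other genes. The remaining paralogs were low as well, with Tead2 between 0.917 and 2.37 FPKM and Tead3 between 0.536 and 1.61 FPKM.

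The LATS kinases phosphorylate YAP and TAZ, and Lats2 is also known as a YAP target that feeds back on the pathway. Lats1 (ENSMUSG00000040021, chromosome 10, 7681214 to 7716460, plus strand) was at 7.18, 6.88 and 5.71 FPKM in CsA, 11, 8.09 and 4.82 FPKM in VO, and 5.68, 5.96 and 7.49 FPKM in Sham. Here too VO held the highest and the lowest library. Lats2 (ENSMUSG00000021959, chromosome 14, 57689662 to 57758388, minus strand) was at 6.59, 5.57 and 6.40 FPKM in CsA, 9.76, 7.43 and 8.16 FPKM in VO, and 5.74, 6.13 and 5.31 FPKM in Sham. All VO libraries were above all CsA and all Sham libraries. The annotation places Gm49361, a protein-coding gene, across Lats2 on the same strand, and Gm49361 was at 0 FPKM in all 9 libraries.

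Of the targets, Ankrd1 varied most between libraries. Ankrd1 (ENSMUSG00000024803, chromosome 19, 36111965 to 36119844, minus strand) encodes a cardiac ankyrin repeat protein of the sarcomere and nucleus, well known as a transcript of stressed myocardium. It was at 143, 39.0 and 156 FPKM in CsA, 60.3, 199 and 306 FPKM in VO, and 138, 164 and 80.1 FPKM in Sham, so that the highest library was 7.84 times the lowest. CsA 2 and VO 1 were lowest, and VO 3 was highest. Ctgf (ENSMUSG00000019997, chromosome 10, 24595442 to 24598683, plus strand), which encodes a secreted matrix-associated protein, was at 46.6, 26.0 and 53.4 FPKM in CsA, 26.3, 55.4 and 65.6 FPKM in VO, and 38.2, 41.9 and 52.8 FPKM in Sham. CsA 2 and VO 1 were again the lowest and VO 3 the highest. An antisense gene, Gm15270, overlaps Ctgf and was between 0.18 and 0.90 FPKM.

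Cyr61 (ENSMUSG00000028195, chromosome 3, 145646976 to 145649981, minus strand), a secreted relative of Ctgf, was at 18.4, 19.5 and 25.5 FPKM in CsA, 9.26, 23.4 and 21.3 FPKM in VO, and 21.4, 18.8 and 19.6 FPKM in Sham. VO 1 stood alone at the low end and the other 8 libraries overlapped across groups. Amotl2 (ENSMUSG00000032531, chromosome 9, 102716672 to 102733418, plus strand), an angiomotin family protein that binds YAP and is itself a YAP target, was at 13.6, 20.3 and 13.1 FPKM in CsA, 10.5, 12.7 and 14.1 FPKM in VO, and 18.2, 14.8 and 21.4 FPKM in Sham. All VO libraries were below all Sham libraries, and the CsA libraries overlapped with both.

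**Figure D1:**
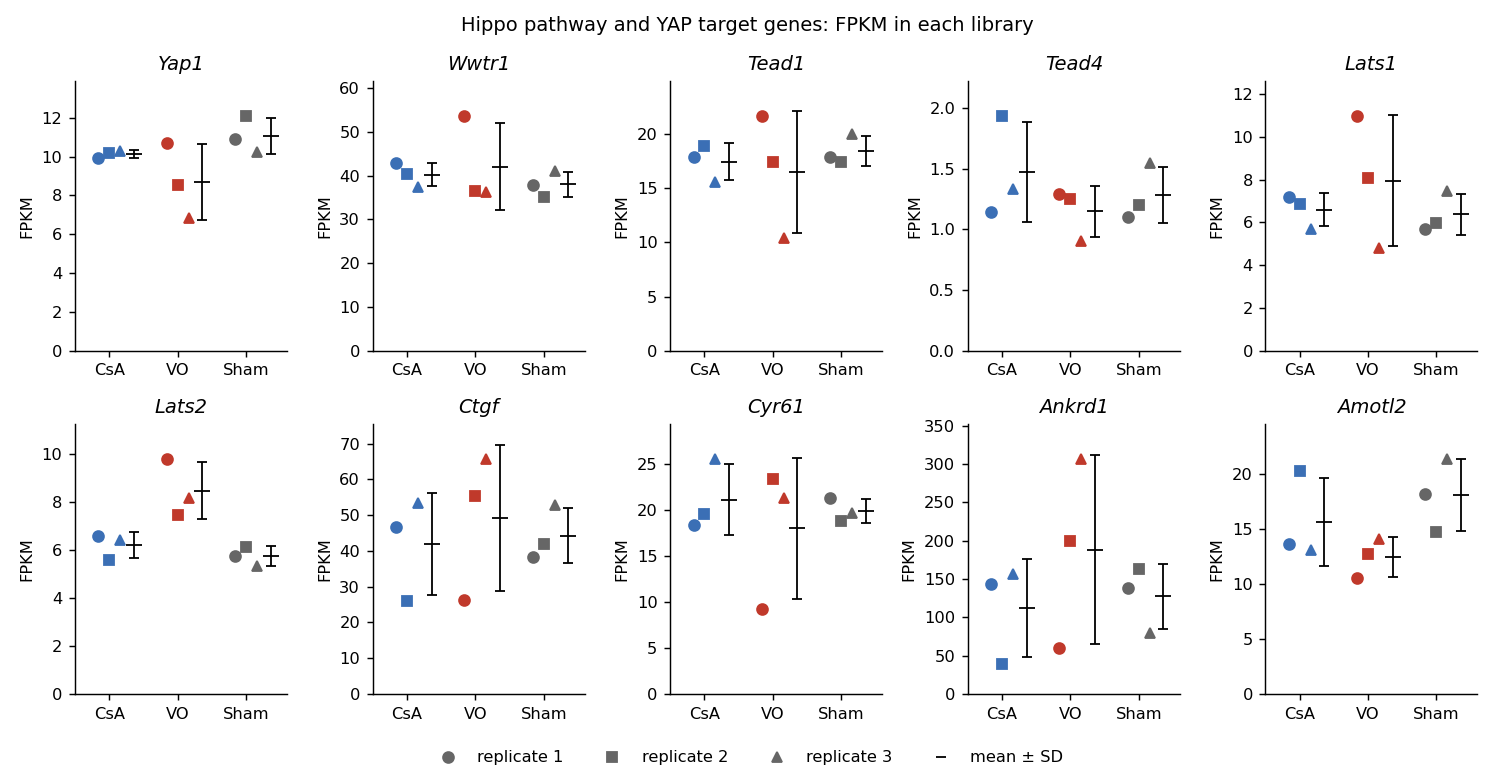
FPKM of each of the 10 genes in each library (vertical axis, from 0), with the groups CsA, VO and Sham along the horizontal axis, 1 symbol per replicate and the mean ± SD beside it. The 3 VO points of Lats2 lie above all others, at 7.43 to 9.76 FPKM, and the VO points of Ankrd1 run over 60.3 to 306 FPKM.

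The spread between libraries of the same group is given as the SD within groups of log2(FPKM + 1), the scale used for testing. For Ankrd1 it was 0.99, larger than for 99.2% of tested genes, for Ctgf 0.52 (91.7%) and for Cyr61 0.42 (85.2%). The target Amotl2 had a smaller spread, 0.26 (57.0%). For the upstream genes it was 0.33 for Lats1 (72.8%), 0.31 for Tead1 (68.1%), 0.20 for Wwtr1 (35.4%), 0.18 for Yap1 (28.2%) and Tead4 (28.0%), and 0.13 for Lats2 (11.8%). Lats2 was thus the steadiest of the 10 on this scale and Ankrd1 the most variable. The 1 added to FPKM shrinks the spread of low genes, most of all Tead4, so its value cannot be set beside that of Yap1.

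Library by library, VO 1 and VO 3 held most of the extremes. Of the 10 highest and 10 lowest values, VO 1 held 4 highest (Wwtr1, Tead1, Lats1 and Lats2) and 2 lowest (Cyr61 and Amotl2), and VO 3 held 2 highest (Ctgf and Ankrd1) and 4 lowest (Yap1, Tead1, Tead4 and Lats1). Over all tested genes, VO 1 was highest or lowest for 43.9% and VO 3 for 53.6%, so extremes in these libraries were common among all genes. Within VO 1, Ctgf, Cyr61 and Ankrd1 deviated from the mean of the 9 libraries by -0.70, -0.97 and -1.0 on the log2 scale, while Lats1, Lats2, Wwtr1 and Tead1 deviated by 0.62, 0.49, 0.42 and 0.32. The markers listed for ventricular cardiomyocytes were Myl2, Myh6, Myh7, Myl3, Tnni3, Tnnt2, Actc1, Ttn and Irx4. Summed, they were at 13381 to 13972 FPKM in CsA, at 9349, 12421 and 16371 FPKM in VO 1 to 3, and at 12693 to 16106 FPKM in Sham. Actc1, at 6492 to 9552 FPKM, was the largest part of that sum in every library. The listed markers were not tested for absence from atrial cells, so that sum does not measure ventricular cells alone. VO 1 was the lowest library for that sum and for 7 of the 9 markers, and VO 3 was the highest for the sum and for 4 of them but the lowest for Ttn and Myh7. The part of these markers in the levels of the 10 genes was not tested. In bulk tissue, fewer cells of a type and less RNA per cell cannot be told apart.

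**Figure D2:**
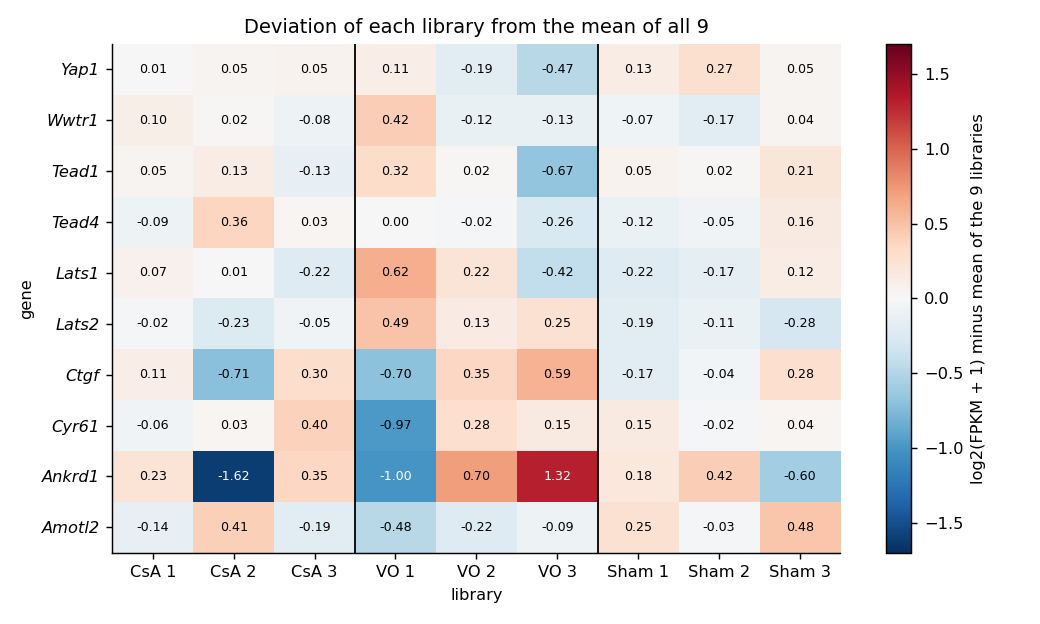
Deviation of each library (columns, CsA, VO then Sham) from the mean of the 9 libraries for each gene (rows), in log2(FPKM + 1), printed in each cell and coloured from blue (below) to red (above). The column of VO 1 is positive for Wwtr1, Tead1, Lats1 and Lats2 and negative for Ctgf, Cyr61, Ankrd1 and Amotl2, and Ankrd1 has the widest row, between -1.62 in CsA 2 and 1.32 in VO 3.

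The comparison of VO with Sham asked whether the volume load changed these transcripts. Lats2 averaged 8.45 ± 1.19 FPKM in VO, against 5.73 ± 0.407 FPKM in Sham (SD, n = 3 each), and Amotl2 averaged 12.5 ± 1.79 FPKM in VO, against 18.1 ± 3.29 FPKM in Sham. These were the 2 genes of the 10 whose VO and Sham libraries did not overlap, and neither passed the test. None of the 10 passed an adjusted p of 0.05 in limma, where 4.76% of tested genes did (275 higher and 367 lower), and 2 of the 10 did not overlap, where 33.1% of tested genes did not (16.2% higher in VO and 17% lower). The median log2 difference was -0.01 over the 10 genes and 0.00 over all genes tested.

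For Lats2 the log2 difference of VO from Sham was 0.48 ± 0.14 (SE; 95% interval 0.17 to 0.80; limma adjusted p = 0.0656). Unadjusted p-values under 0.05 were reached by 29.3% of tested genes, and 9.62% had a smaller p than Lats2. Leaving out VO 3 brought Lats2 past the threshold, with a log2 difference of 0.50 ± 0.14 and a limma adjusted p of 0.0483, when the count over all genes was 2032. It was the only one of 25 alternative settings that did so, and over these the adjusted p of Lats2 ran from 0.0483 to 0.97. After each library was corrected for its trend with GC content the log2 difference was 0.60, and Lats2 did not pass.

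For Amotl2 the log2 difference was -0.50 ± 0.21 (SE; 95% interval -0.96 to -0.04; limma adjusted p = 0.144), and it was -0.20 after the GC correction. Amotl2 has a GC content of 56.7% in its longest transcript, against 52.2% in Lats2 and 45.2% in Yap1. Yap1 averaged 8.69 ± 1.95 FPKM in VO and 11.1 ± 0.941 FPKM in Sham, a log2 difference of -0.33 ± 0.16 (limma adjusted p = 0.203), or -0.49 after the GC correction. Both co-activators overlapped between VO and Sham, and for Wwtr1 the log2 difference was 0.12 ± 0.18, with a 95% interval of -0.28 to 0.53. Its sign turned under the GC correction, to -0.08.

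The DNA-binding partners and the other kinase showed no difference beyond the spread. The log2 difference of VO from Sham was -0.21 ± 0.23 for Tead1, -0.09 ± 0.16 for Tead4 and 0.23 ± 0.24 for Lats1 (SE), with limma adjusted p-values of 0.583, 0.757 and 0.566. For Tead4 the GC correction turned the sign, to 0.27. Among the targets it was 0.34 ± 0.66 for Ankrd1, -0.23 ± 0.30 for Cyr61 and 0.06 ± 0.36 for Ctgf, with limma adjusted p-values of 0.766, 0.635 and 0.931. The interval of Ankrd1, -1.13 to 1.81, leaves room for large differences in either direction, and that of Ctgf was -0.74 to 0.86.

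Single libraries decided the direction for these targets. Without VO 1 the log2 difference of VO from Sham was 1.01 for Ankrd1, 0.45 for Ctgf and 0.16 for Cyr61. Without VO 3 it was -0.15 for Ankrd1 and -0.19 for Ctgf. For Ctgf the sign also turned under quantile scaling and when FPKM was rescaled without mitochondrially encoded genes, to -0.02 in both.

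**Figure D3:**
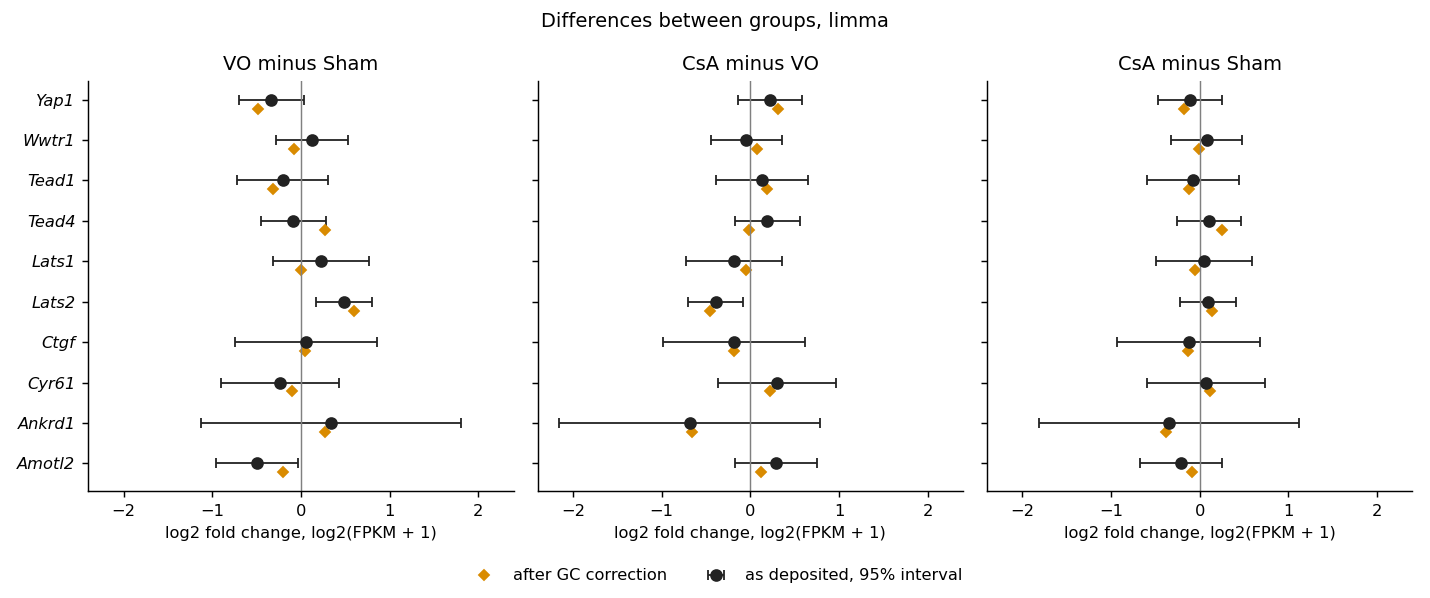
Log2 difference of each gene (rows) on the log2(FPKM + 1) scale for VO minus Sham, CsA minus VO and CsA minus Sham (panels), as black points with 95% intervals from limma on the deposited values and orange diamonds after the GC correction. Lats2 and Amotl2 have intervals that leave out 0 for VO minus Sham and Lats2 alone for CsA minus VO, before adjustment over all genes.

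Whether these transcripts differed with the drug in loaded hearts was asked by setting CsA against VO. Lats2 averaged 6.19 ± 0.545 FPKM in CsA and 8.45 ± 1.19 FPKM in VO (SD, n = 3 each), and it was the only one of the 10 whose libraries did not overlap, as was so for 21.2% of tested genes in either direction and for 10.3% in this one. None of the 10 passed an adjusted p of 0.05 in limma, where 0% of tested genes did. At an unadjusted p under 0.05 limma had 2219 genes (16.5%), Lats2 among them, and voom on recovered fragments had 2266. At an adjusted p under 0.05 voom called 0. The log2 difference of Lats2 was -0.39 ± 0.14 (SE; 95% interval -0.70 to -0.08; limma adjusted p = 0.242), and -0.46 after the GC correction. This comparison and that of VO with Sham share the VO libraries, so the higher VO values of Lats2 enter both.

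The other 9 genes overlapped between CsA and VO. Ankrd1 averaged 113 ± 64.1 FPKM in CsA and 188 ± 123 FPKM in VO, a log2 difference of -0.69 ± 0.66 (SE) with a 95% interval of -2.15 to 0.78. Without VO 1 it was -1.36, and without CsA 2 it was -0.05. Cyr61 averaged 21.1 ± 3.83 FPKM in CsA and 18 ± 7.65 FPKM in VO, a log2 difference of 0.30 ± 0.30, and Ctgf averaged 42.0 ± 14.3 FPKM in CsA and 49.1 ± 20.4 FPKM in VO, a log2 difference of -0.18 ± 0.36. Leaving out VO 1 turned the sign of Cyr61, to -0.09, and leaving out CsA 2 turned that of Ctgf, to 0.12.

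Among the remaining genes the log2 difference of CsA from VO was 0.29 ± 0.21 for Amotl2 and 0.22 ± 0.16 for Yap1 (SE). It was 0.19 ± 0.16 for Tead4, 0.13 ± 0.23 for Tead1, -0.04 ± 0.18 for Wwtr1 and -0.18 ± 0.24 for Lats1. Limma adjusted p-values for these 6 lay between 0.488 and 0.928. The median over the 10 genes was 0.04, and over all tested genes it was 0.00.

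The comparison of CsA with Sham asked how the drug-treated load stood against unloaded tissue. None of the 10 genes passed an adjusted p of 0.05 in limma, where 0% of tested genes did. None of the 10 reached an unadjusted p under 0.05, as 200 tested genes (1.48%) did. Voom called 0 genes at an adjusted p under 0.05 and had 117 at an unadjusted one. None was without overlap, where 9.74% of tested genes were. The log2 difference of CsA from Sham ran from -0.35 ± 0.66 for Ankrd1 to 0.11 ± 0.16 for Tead4 (SE), and the limma adjusted p was 1 for all 10. The narrowest interval was that of Lats2, at 6.19 ± 0.545 FPKM in CsA and 5.73 ± 0.407 FPKM in Sham, with a log2 difference of 0.09 and a 95% interval of -0.22 to 0.41. For Amotl2 the interval was -0.67 to 0.25 and for Yap1 -0.48 to 0.25. Intervals this wide do not show that CsA and Sham were alike.

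Ratios within a library compare paralogs without regard to scaling between libraries. The ratio of Wwtr1 to Yap1 FPKM, or TAZ to YAP transcript per length, was 4.32, 3.95 and 3.65 in CsA, 5.01, 4.26 and 5.32 in VO, and 3.47, 2.91 and 4.02 in Sham. All VO ratios were above all Sham ratios, and CsA overlapped with both. The mean was 3.97 ± 0.338 in CsA, 4.86 ± 0.543 in VO and 3.47 ± 0.553 in Sham (SD, n = 3 each). The log2 difference of VO from Sham was 0.50, with an exact two-sided permutation p of 0.1, the smallest that 3 against 3 allows, and an adjusted p of 0.54 over 9 such tests. After the GC correction it was 0.41, but that value was taken on log2(FPKM + 1) and is not on the same scale. Between CsA and VO the log2 difference was -0.29 (exact permutation p = 0.2) and for CsA against Sham 0.21 (exact permutation p = 0.3).

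The balance of the kinases rested on 1 library. The ratio of Lats2 to Lats1 FPKM was 0.918, 0.809 and 1.12 in CsA, 0.889, 0.919 and 1.69 in VO, and 1.01, 1.03 and 0.710 in Sham. VO 3 alone was above all others and the groups overlapped. The log2 difference of VO from Sham was 0.30 with all libraries (exact permutation p = 0.6) and 0.00 without VO 3. Between CsA and VO it was -0.24 (exact permutation p = 0.6), and without VO 3 it was 0.06.

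Tead1 made up most of the TEAD transcripts in every library. Its share of the summed FPKM of Tead1 to Tead4 was 80.9%, 78.0% and 76.1% in CsA, 88.0%, 79.2% and 80.2% in VO, and 81.0%, 78.3% and 80.9% in Sham. VO 1 was the highest and CsA 3 the lowest, and the groups overlapped. The difference was 2.35 percentage points for VO minus Sham (exact permutation p = 0.7), -4.12 for CsA minus VO (exact permutation p = 0.3) and -1.77 for CsA minus Sham (exact permutation p = 0.2).

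**Figure D4:**
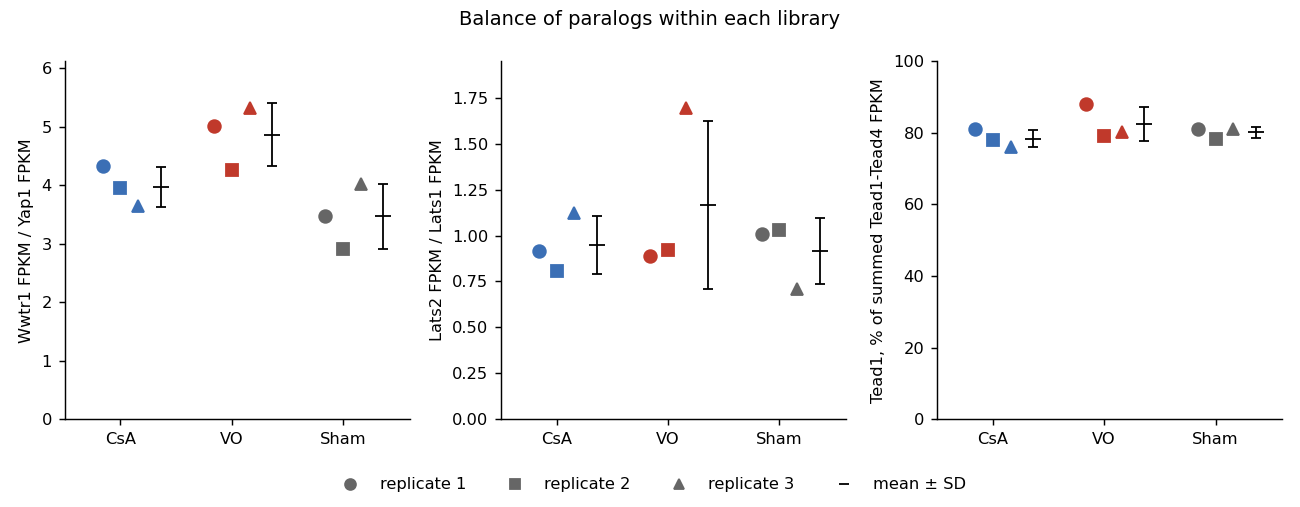
Ratio of Wwtr1 to Yap1 FPKM, ratio of Lats2 to Lats1 FPKM, and share of Tead1 in the summed FPKM of Tead1 to Tead4 in percent (panels, axes from 0) in each library of CsA, VO and Sham, with the mean ± SD beside the points. The 3 VO points of the first panel, at 4.26 to 5.32, lie above the 3 Sham points at 2.91 to 4.02, and in the second panel VO 3 stands alone at 1.69.

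The rest of the pathway was read from 28 other Hippo genes, of which 25 were tested. Vgll1 and Vgll2 were listed at 0 in all libraries, and Wwc1 was under the filter. For VO against Sham none of the 25 passed the test, 8 had a log2 difference above 0 and 17 below, and the median was -0.19, against 0.00 over all genes tested. After the GC correction the counts were again 8 and 17, and the median was -0.08. By role the median was 0.05 for 9 core kinases and scaffolds and -0.18 for 12 upstream regulators, or -0.15 and -0.09 after the GC correction. Of the 25, 2 were higher and 7 lower without overlap (36% in all), where 16.2% of tested genes were higher and 17% lower. Between CsA and VO none passed, 17 were above 0 and 8 below, and the median was 0.13, or 0.12 after the GC correction. For CsA against Sham none passed and the median was 0.03, or -0.01 after the GC correction.

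The 3 of these genes with the smallest p for VO against Sham were all lower in VO and had no overlap between the groups, though none passed the test. Vgll4, which competes with YAP for TEAD binding, was at 2.87, 2.97 and 1.54 FPKM in VO and 5.04, 3.92 and 4.68 FPKM in Sham, a log2 difference of -0.70 ± 0.19 (SE; limma adjusted p = 0.0567). Nf2, which encodes the upstream activator Merlin, was at 9.86, 13.4 and 9.66 FPKM in VO and 19.2, 17.2 and 14.9 FPKM in Sham, a log2 difference of -0.60 ± 0.17 (limma adjusted p = 0.0628). Taok2, a kinase upstream of MST1 and MST2, was at 5.12, 5.45 and 3.36 FPKM in VO and 6.95, 6.77 and 6.80 FPKM in Sham, a log2 difference of -0.49 ± 0.16 (limma adjusted p = 0.0861). After the GC correction these were -0.43, -0.44 and -0.19, and none passed the test. Vgll4 passed the test with voom and without VO 3, and Nf2 without VO 2.

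In CsA against VO the 3 smallest p-values were those of Vgll4, Nf2 and Tead2. Vgll4 averaged 4.06 ± 0.422 FPKM in CsA and 2.46 ± 0.802 FPKM in VO, a log2 difference of 0.57 ± 0.19 (limma adjusted p = 0.226). Nf2 averaged 15.7 ± 1.82 FPKM in CsA and 11 ± 2.12 FPKM in VO, a log2 difference of 0.48 ± 0.17 (limma adjusted p = 0.238). Tead2 averaged 2.08 ± 0.283 FPKM in CsA and 1.34 ± 0.558 FPKM in VO, a log2 difference of 0.41 ± 0.18 (limma adjusted p = 0.30). For CsA against Sham they were those of Wtip, Vgll3 and Mob1a, with log2 differences of -0.39, 0.26 and 0.26 and limma adjusted p-values of 1.

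A wider list of 22 other YAP and TEAD targets, of which 20 were tested, was chosen from knowledge of the pathway. For VO against Sham none passed the test, 8 had a log2 difference above 0 and 12 below, and the median was -0.09, or -0.10 after the GC correction. Of the 20, 3 were higher and 3 lower without overlap (30% in all), where 33.1% of tested genes had none. For CsA against VO none passed and the median was 0.07, and for CsA against Sham none passed and the median was 0.00.

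Arhgef17 and Tgfb1 were among the targets with the smallest p for VO against Sham, and neither passed the test. Arhgef17, which encodes a guanine nucleotide exchange factor, was at 7.08, 7.06 and 3.47 FPKM in VO and 11.7, 10.3 and 12.2 FPKM in Sham, a log2 difference of -0.90 ± 0.24 (SE; limma adjusted p = 0.0553). Tgfb1, which encodes the growth factor TGF-beta 1, was at 1.68, 4.11 and 3.88 FPKM in VO and 5.96, 5.95 and 5.95 FPKM in Sham, a log2 difference of -0.78 ± 0.23 (limma adjusted p = 0.0686). Neither overlapped between the groups, with all VO libraries below all Sham libraries. After the GC correction the log2 differences were -0.55 for Arhgef17 and -0.65 for Tgfb1. Arhgef17 passed the test with voom and without VO 3, and Tgfb1 with library weights and without VO 3.

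Both were also among the targets with the smallest p for CsA against VO. The log2 difference of CsA from VO was 0.63 ± 0.23 for Tgfb1 and 0.59 ± 0.24 for Arhgef17 (SE), with limma adjusted p-values of 0.245 and 0.268. VO libraries enter both comparisons, so the opposite signs are no second observation. For CsA against Sham the smallest were those of Birc5, Arhgef17 and Asap1, with log2 differences of 0.57, -0.31 and 0.17 and limma adjusted p-values of 1.

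**Figure D5:**
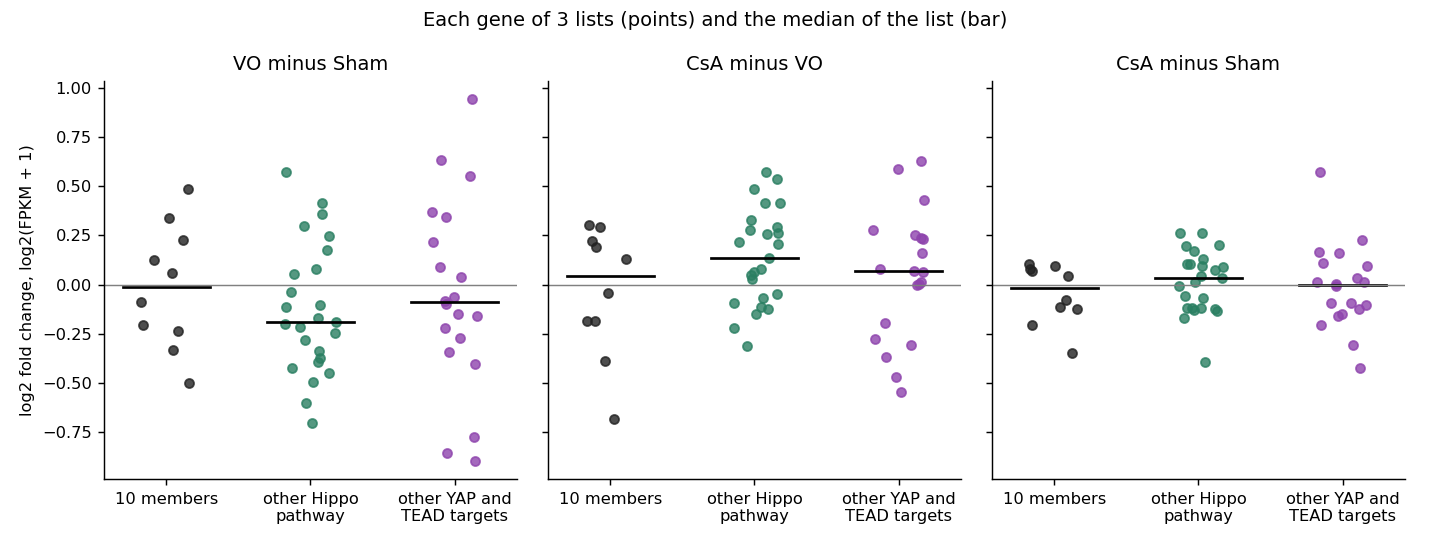
Log2 difference on the log2(FPKM + 1) scale of each gene (points) in the 10 genes described, the 25 other Hippo pathway genes and the 20 other YAP and TEAD targets, for VO minus Sham, CsA minus VO and CsA minus Sham (panels), with the median of each list as a bar. The bar of the other Hippo genes lies at -0.19 for VO minus Sham (-0.08 after the GC correction, which is not drawn) and at 0.13 for CsA minus VO, 2 comparisons that share the VO libraries.

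Markers of cell types were read from the same comparisons. Of 53 tested markers, those of cardiomyocytes included, 2 passed the test higher in VO than in Sham and 2 lower, where 4.76% of tested genes passed. VO and Sham libraries did not overlap for 20.8% of the markers, a smaller share than the 33.1% of tested genes. After the GC correction no marker passed, where 0 of all genes did. Summed endothelial markers were at 295 to 346 FPKM in CsA, 222 to 235 FPKM in VO and 285 to 324 FPKM in Sham, with 4 of 7 below 0 for VO against Sham and 3 above. Of these Tie1 passed the test, lower in VO. Smooth muscle and pericyte markers were at 693 to 792 FPKM in CsA, 539 to 701 FPKM in VO and 701 to 1015 FPKM in Sham. All 6 tested of 7 were below 0 for VO against Sham, and Myh11 passed the test, lower in VO. Fibroblast markers were at 792 to 939 FPKM in CsA, 958 to 998 FPKM in VO and 753 to 902 FPKM in Sham, with 6 of 8 above 0 for VO against Sham and Lum past the test, higher in VO. Macrophage markers summed to 52.0 to 63.5 FPKM in CsA, 35.6 to 83.0 FPKM in VO and 62.3 to 75.6 FPKM in Sham, with 4 of 6 below 0 for VO against Sham (median log2 difference -0.29) and Fcgr1 past the test, higher in VO. Erythroid markers were at 666 to 1039 FPKM in CsA, 591 to 2038 FPKM in VO and 710 to 895 FPKM in Sham, and epicardial markers at 23.0 to 32.3 FPKM in CsA, 17.4 to 29.4 FPKM in VO and 19.4 to 30.7 FPKM in Sham, with none past the test. No list had a marker at 0 in all libraries. The part of these cell types in the values of Lats2, Amotl2, Ctgf or Cyr61 was not tested.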

How the data were processed

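The authors' deposited table gives FPKM per gene for the 9 libraries. Per the submitters' processing notes the builds were GRCm38 and mm10. These notes also name, without their roles, GATK 3.7, DESeq2 1.20.0, featureCounts 1.5.0-p3, StringTie 1.3.3b and HISAT2 2.0.5. The annotation release and the strand setting are not given in the sources used here, so reads of overlapping or antisense genes may not be told apart. Each library was built from 1 µg of RNA (Trizol, NEBNext Ultra), per the labels.

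Groups came from the treatment labels. The test used log2(FPKM + 1), so differences understate the change of low genes, most of all Tead4. A gene was kept at a mean of 0.5 FPKM or more (13477 of 54532 were, and 27959 were at 0 throughout). One limma 3.58.1 fit (R 4.3.3) held all libraries, with a mean-variance trend and no covariate. Tests were two-sided, with Benjamini-Hochberg adjustment over all genes kept, at 0.05. Paralog ratios were compared by exact two-sided permutation. Whole fragments were recovered from the steps of the FPKM values (100% of values were within 0.1 of a whole fragment) and tested with voom as an alternative, which called 948 genes for VO against Sham. PCR copies are not separate molecules, so depth covers counting error only. Replicate pairs all differed by more than counting noise.

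GC content came from the longest GENCODE M21 transcript, known for 99.9% of tested genes, and the correction subtracted a loess fit on it (span 0.3, degree 1) within each library. Alternatives also changed the pseudocount, filter, scaling, weights, block and libraries. The fit was also run on simulated independent counts with known changes. These held no GC trend and no library set apart, so that run does not cover libraries such as VO 3. Figures used matplotlib 3.10.9 and Python 3.11.15. Coordinates are those of the deposited table.

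The 10 genes, the lists, the tests and the naming rule were chosen with earlier results of these data known. All 10 genes are given in each comparison, and of each other list those past the test, filled to 3 by smallest p. A gene that this rule takes is not reported here.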

Additional observations from a re-analysis of the deposited data

How the results depend on the processing

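Of the values of the 10 genes under alternative settings, 690 kept their direction and their side of the threshold, 59 turned direction and 1, that of Lats2 for VO against Sham without VO 3, passed the threshold. Over the libraries left out in turn that value ran from 0.39 to 0.56, and the number of the 10 genes called from 0 to 1. For VO against Sham, Lats2, Amotl2 and Yap1 kept their direction in all 25 settings. Not all of these could turn a direction. Robust empirical Bayes, the replicate block and leaving out the third group or a library of it change the spread and not the difference. The block with the GC correction repeats the difference of the GC correction alone. The 690 values include such settings, so that count overstates how far directions were tried. The depth of Tead4 and the spread between libraries of Ankrd1, Ctgf and Cyr61 limit what can be said of them, and the cause of the turned directions was not tested. The count of genes called for VO against Sham, 642, became 0 with no filter on low values, with the GC correction alone or with the replicate block, and when the third group was kept out of the fit. It became 1 with the replicate block alone, in which none of the 10 genes was called. Same-numbered libraries had correlations of deviations between -0.40 and 0.24, and not every library correlated best with its own number. Whether the numbers pair the samples cannot be settled by this, as deviations from group means also carry what sets single libraries apart.

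The GC correction, with or without the replicate block, turned 7 values. For VO against Sham these were Wwtr1 at -0.077, Tead4 at 0.27 and Lats1 at -0.0044, for CsA against VO Wwtr1 at 0.072 and Tead4 at -0.017, and for CsA against Sham Wwtr1 at -0.0056 and Lats1 at -0.056. Quantile scaling gave -0.020 for Ctgf (VO against Sham) and 0.020 for Wwtr1 (CsA against VO), and rescaling without mitochondrially encoded genes gave -0.020 and 0.068 for the same pair. Library weights gave 0.023 for Tead4 (VO against Sham), -0.063 for Tead1 and 0.11 for Ctgf (CsA against VO), and 0.15 for Ctgf (CsA against Sham).

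Further settings were chosen after seeing the data. Without the 3 libraries high in Myl7, Sham 1, Sham 3 and CsA 3, 3 genes were called for VO against Sham and 3 for CsA against Sham. This leaves Sham with 1 library, Sham 2, the only one with Y-linked Ddx3y above 0, and that library is assumed to vary like the other groups, so these counts and signs say little about Sham as a group. Ankrd1 was then at -0.081 (VO against Sham), Wwtr1 at 0.0043 (CsA against VO), and Tead1 at 0.071, Lats2 at -0.014 and Amotl2 at 0.16 (CsA against Sham). When VO 3 was dropped and GC corrected for together, 19 genes were called for VO against Sham and 1 for CsA against VO. For VO against Sham, Wwtr1 was then at -0.027, Tead4 at 0.43, Ctgf at -0.18 and Ankrd1 at -0.21. For CsA against VO, Wwtr1 was at 0.022, Tead1 at -0.075, Tead4 at -0.19 and Ctgf at 0.049, and for CsA against Sham Wwtr1 was at -0.0056 and Lats1 at -0.056.

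With each library left out in turn, the count of genes called ran from 0 to 2032 for VO against Sham, from 0 to 1 for CsA against VO and from 0 to 3 for CsA against Sham. For VO against Sham the log2 difference ran from -0.15 to 1.01 for Ankrd1, from -0.19 to 0.45 for Ctgf, from -0.46 to 0.16 for Cyr61, from -0.013 to 0.51 for Lats1, from -0.42 to 0.073 for Tead1 and from -0.059 to 0.22 for Wwtr1. For CsA against VO it ran from -0.57 to 0.12 for Ctgf, from -0.092 to 0.53 for Cyr61, from -0.46 to 0.057 for Lats1, from -0.15 to 0.34 for Tead1 and from -0.14 to 0.14 for Wwtr1. For CsA against Sham it ran from -0.70 to 0.29 for Ankrd1, from -0.32 to 0.18 for Ctgf, from -0.068 to 0.16 for Cyr61, from -0.023 to 0.15 for Lats1 and from -0.025 to 0.20 for Tead4. The log2 ratio of Lats2 to Lats1 ran from -0.12 to 0.17 for CsA against Sham and from -0.41 to 0.058 for CsA against VO, and the share of Tead1 from -0.43 to 3.99 percentage points for VO against Sham.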
